A study of Mus musculus with 15 samples.

Results

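Light zone and dark zone cells were compared within the high-affinity germinal centre B cells of mouse spleen. The members were the arrays whose titles place them in the high-affinity light zone or dark zone, 7 of the 15 arrays of the series: 3 of light zone cells (LZ_high) and 4 of dark zone cells (DZ_high). All cells were SwHEL B cells with the CD45.1 congenic marker, taken from donors whose knocked-in B cell receptor binds hen egg lysozyme, and transferred into C57BL/6J mice carrying CD45.2. The recipients were immunized with sheep red blood cells carrying HEL3x, a mutant of hen egg lysozyme. On day 10 the donor-derived cells that were IgG1+ and CD38 low were sorted into the light zone gate, with high CD86 and low CXCR4, and the dark zone gate, with high CXCR4 and low CD86. The labels call the cells of both groups high affinity and do not say by which stain affinity was read. All 15 samples were female. The groups shared genotype, immunization and day by their labels and differed in the zone gate, and also in the experiments they came from, as given below. The 4 arrays each of low-affinity light zone (LZ_low) and dark zone (DZ_low) cells entered the fit to share its estimate of spread and served for comparison.

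A germinal centre has a dark zone, where B cells divide and mutate their antigen receptor genes, and a light zone, where they take up antigen from follicular dendritic cells and present it to follicular helper T cells. Cells that receive T cell help induce MYC, NF-kappaB targets and costimulatory molecules, and return to the dark zone to divide again. CXCR4 holds cells in the dark zone, and CD86 is a costimulatory molecule of the light zone.

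Expression was given as log2 RMA values, so a difference of 1 is a doubling, and every difference is given as light zone minus dark zone. Medians of the 7 arrays lay between 5.57 and 5.71. Errors after ± are standard errors of the limma fit unless SD is named. The 8 measured markers of germinal centre B cells, among them Bcl6, Pax5, Rgs13 and Fas, had mean log2 values of 9.90 to 10.17 on light zone and 9.94 to 10.31 on dark zone arrays. The sample descriptions carry an experiment code, which joins LZ_high and DZ_high arrays into 3 pairs, A, B and C, and leaves DZ_high replicate 4 (code D) without a light zone partner. Code B is written differently for the zones, and whether both forms name 1 experiment is not known. The labels do not say whether arrays came from separate mice, so p-values speak only of the spread seen among these samples, and the number of arrays limits the precision.

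The sort markers came first, as a check of the gates. Cd86 was at 10.90, 10.81 and 10.97 on the light zone arrays and at 9.41, 9.58, 9.27 and 10.00 on the dark zone arrays. The groups did not overlap, and the difference was 1.33 ± 0.16 (limma adjusted p = 0.0133). Cxcr4 was at 10.00, 10.13 and 10.48 in light zone cells and at 10.77, 10.69, 11.55 and 10.86 in dark zone cells. These values did not overlap either, but the difference of -0.76 ± 0.23 did not pass the test (limma adjusted p = 0.999, or 0.499 when the block of experiment codes was added). Both genes define the gates and are no finding between the zones.

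Among 19938 genes, 3 were called at an adjusted p under 0.05, which is 0.015% of those tested. All 3 were higher in light zone cells, and 0 were lower (0%). Beside Cd86 they were Fcer2a and Tnfsf9. At an unadjusted p under 0.05, 559 genes passed (2.8%), 295 higher (1.48%) and 264 lower (1.32%). Differences over 1 were measured for 44 genes on the light zone side (0.221%) and for 60 on the dark zone side (0.301%).

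Fcer2a encodes CD23, the low-affinity receptor for IgE, which is also a marker of follicular B cells. Its values were 10.19, 10.02 and 10.17 on the light zone arrays against 7.98, 8.40, 8.44 and 8.26 on the dark zone arrays. Every light zone array stood well above every dark zone array. Fcer2a rose by 1.86 ± 0.19, a 3.62-fold difference (limma adjusted p = 0.00348), and by 2.21, 1.63 and 1.73 within pairs A, B and C. It was called in 15 of 15 fits that left out 1 array. An exact two-sided permutation test over the 35 splits of these 7 arrays gave p = 0.0571 for Fcer2a, which is the smallest value that 3 against 4 arrays allow.

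Tnfsf9 encodes 4-1BB ligand, a TNF family member that costimulates T cells through 4-1BB. Light zone arrays read 7.87, 7.31 and 8.24, and dark zone arrays 5.61, 5.97, 5.16 and 6.29. The lowest light zone value lay above the highest dark zone value. The gene rose by 2.05 ± 0.28, a 4.14-fold difference (limma adjusted p = 0.0224), and the pairs differed by 2.26, 1.34 and 3.08. Cd86 and Tnfsf9 were each called in 9 of the 15 fits that left out 1 array, and 1 gene was left when DZ_high replicate 1, 2 or 3, or LZ_high replicate 1 or 4, was taken out. Leaving out experiment A, B or C as a whole left 0 calls in limma, with 755, 451 and 564 genes at an unadjusted p under 0.05. For Tnfsf9 and for Cd86 the exact permutation p was again 0.0571.

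With the experiment code as a block, codes of B merged, limma called 11 genes (0.0552%), 7 higher in light zone cells (0.0351%) and 4 lower (0.0201%). With code B as written, 1 gene was called, Fcer2a (limma adjusted p = 0.0235), so the calls the block added rest on the merge. The differences themselves were alike in that fit, with 2.32 for Tnfsf9, 1.33 for Cd86, 1.60 for Cd83 and 1.68 for Slfn2, and -1.01 for Smarca4 and -0.84 for Polh. Without experiments A or B the block fit called 0 genes in limma, with 1133 and 686 at an unadjusted p under 0.05, without C it called 1, and without DZ_high replicate 4 it called 24. Over the 15 block fits that left out 1 array the count ran from 1 to 24, and 1 was reached without DZ_high replicate 1, DZ_low replicate 2, LZ_low replicate 2 or any of the LZ_high arrays. Fcer2a was called in 15 of those 15 fits, Cd83 in 8 and Egr2 in 5, and each other gene in 1 to 4.

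On the light zone side the block added 4 genes to Fcer2a, Tnfsf9 and Cd86. Cd83, a surface protein that keeps MHC class II and CD86 on the membrane and marks light zone cells, was at 9.82, 9.47 and 9.76 in light zone cells and at 7.99, 7.93, 8.59 and 8.38 in dark zone cells. There was no overlap, with a difference of 1.46 ± 0.26 (limma adjusted p = 0.165, or 0.0186 with the block). Egr2, a zinc finger transcription factor induced by antigen receptor signals, read 8.95, 8.56 and 9.26 against 7.13, 7.49, 7.58 and 7.08. The groups were again apart, by 1.61 ± 0.25 (limma adjusted p = 0.0722, or 0.0346 with the block).

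Bcl2a1c belongs to a cluster of closely similar genes for survival proteins of the BCL2 family, and its probe set may also take signal from its relatives, so this value is uncertain. It was at 8.22, 8.51 and 8.62 in light zone cells and at 7.01, 7.41, 7.36 and 6.07 in dark zone cells, where replicate 4 was the lowest. The groups did not overlap, with a difference of 1.49 ± 0.46 (limma adjusted p = 0.999, or 0.0346 with the block). Slfn2, a Schlafen family gene linked to lymphocyte quiescence, read 8.09, 7.89 and 8.94 against 6.34, 6.13, 7.62 and 7.24. Its difference was 1.47 ± 0.45 (limma adjusted p = 0.999, or 0.0346 with the block), while the pairs differed by 1.75, 1.76 and 1.32. The light zone arrays stayed above the dark zone arrays, although within each zone Slfn2 spread widely.

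On the dark zone side the block called 4 genes. Hmces, whose product senses abasic sites in DNA, was at 10.12, 9.95 and 10.18 in light zone cells and at 10.82, 10.80, 11.27 and 10.94 in dark zone cells. The groups were apart by -0.87 ± 0.14 (limma adjusted p = 0.0911, or 0.0348 with the block). Smarca4, the ATPase of the SWI/SNF chromatin remodeller, read 9.61, 9.86 and 9.95 against 10.42, 10.77, 11.14 and 10.61. Its difference was -0.93 ± 0.21 without overlap (limma adjusted p = 0.532, or 0.0348 with the block).

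Polh encodes DNA polymerase eta, which copies across lesions and makes A:T mutations during somatic hypermutation. It was at 9.28, 9.46 and 9.71 in light zone cells and at 10.13, 10.30, 10.55 and 9.62 in dark zone cells. DZ_high replicate 4, the array without a partner, fell inside the light zone range, while the pairs differed by -0.86, -0.84 and -0.84. The group difference was -0.67 ± 0.25 (limma adjusted p = 0.999, or 0.0469 with the block). Cd93, a lectin-like surface receptor found on early B cells and plasma cells, read 4.54, 5.21 and 4.81 against 5.89, 6.48, 5.62 and 6.10. These low values did not overlap, with a difference of -1.16 ± 0.24 (limma adjusted p = 0.35, or 0.0346 with the block).

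**Figure D1:**
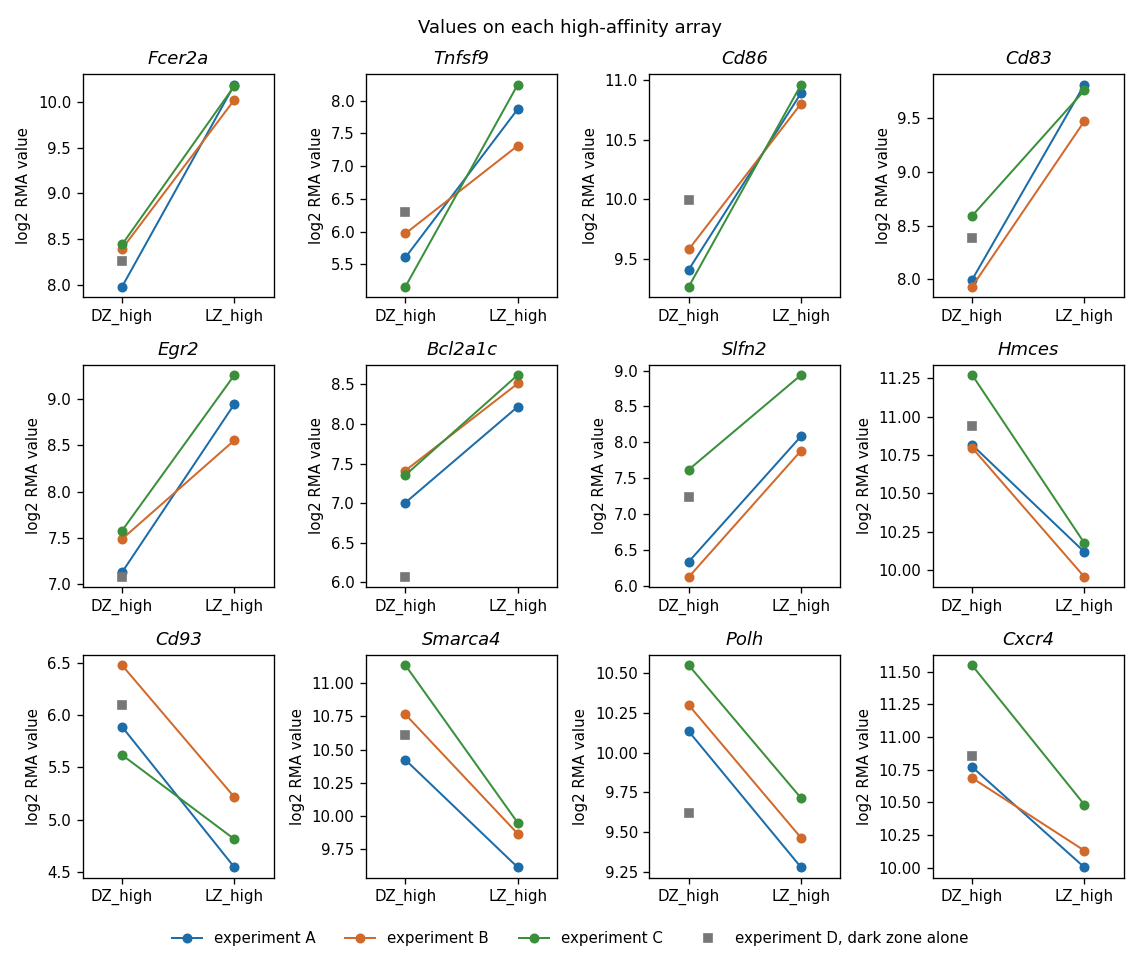
Log2 RMA values (vertical axis) of the 11 genes called with the experiment block and of Cxcr4 on each dark zone (DZ_high) and light zone (LZ_high) array; lines join arrays of the same experiment code and the square is the dark zone array without a partner. Each of the 3 lines rises for Fcer2a, Tnfsf9, Cd86, Cd83, Egr2, Bcl2a1c and Slfn2 and falls for Hmces, Cd93, Smarca4, Polh and Cxcr4, and for Polh the unpaired array lies at 9.62, within the light zone range.

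To set these genes beside known DNA elements, the 250 bases before each transcription start were searched, on both strands, for 1 form of the NF-kappaB element, narrower than its full consensus, and the EGR element GCGTGGGCG. RefSeq windows of build GRCm38.p6 were found for 7 of the 11 genes, 13 windows in all. That NF-kappaB form was in 0 of these 13 and in 1.41% of all 32851 windows, and the EGR element was in the window of Bcl2a1c and in 0.536% of all windows. The windows of Bcl2a1c, at chr9:114329885-114330134 on the plus strand, and of Fcer2a, at chr8:3694175-3694424 on the minus strand, are shown since Bcl2a1c holds the match and Fcer2a was the gene called most often. Of the 3 windows of Fcer2a, the one farthest upstream is shown, and the other two hold no match either. Capitals mark the EGR element, which lies on the reverse strand 148 to 140 bases before the start. The capitals are a match of letters and not a measured binding site, and a missing match says only that these letters are not in this window.
Bcl2a1c: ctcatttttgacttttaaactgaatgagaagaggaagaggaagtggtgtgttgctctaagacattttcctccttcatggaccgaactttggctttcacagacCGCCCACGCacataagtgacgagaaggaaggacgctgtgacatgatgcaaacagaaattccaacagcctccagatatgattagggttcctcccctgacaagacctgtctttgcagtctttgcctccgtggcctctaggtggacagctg
Fcer2a: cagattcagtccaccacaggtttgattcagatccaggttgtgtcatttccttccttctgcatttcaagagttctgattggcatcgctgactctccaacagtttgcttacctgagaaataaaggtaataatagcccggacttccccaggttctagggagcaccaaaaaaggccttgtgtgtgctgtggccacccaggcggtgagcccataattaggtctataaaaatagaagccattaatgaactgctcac

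Beyond the called genes, those with the largest test statistics were described among genes whose groups did not overlap and whose 3 pairs had 1 sign. Over all genes, 366 did not overlap and were higher in light zone cells (1.84%) and 369 were lower (1.85%), and where groups do not overlap the pairs must share the sign. The genes described next did not pass the adjusted test with or without the block, so their values are given as measured. On the light zone side, Hhex, a homeobox transcription factor, differed by 1.80 ± 0.37, with values of 7.99, 7.97 and 7.12 against 5.72, 6.16, 5.67 and 6.03. Casp4, an inflammatory caspase, differed by 1.74 ± 0.31, with light zone values from 7.75 to 8.76 and dark zone values from 6.05 to 6.88. Casp4 had its widest gap in pair C, at 2.66, against 1.01 in pair B.

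Cd72, an inhibitory coreceptor of B cells, differed by 1.39 ± 0.26, and its pairs ran from 2.14 in A through 1.10 in B to 0.70 in C. Plpp1, a lipid phosphate phosphatase, was the steadiest of these, at 1.43, 1.39 and 1.38 in the pairs. Batf, a transcription factor of the AP-1 family, differed by 1.15 ± 0.20, with pairs at 0.99, 0.76 and 1.16. All of these lay apart between the groups by the rule that chose them.

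On the dark zone side, Entpd1, which encodes the ectonucleotidase CD39, had the widest gap of this group, with 4.08, 4.69 and 4.44 in light zone cells against 5.74, 5.82, 6.86 and 6.53. Its difference was -1.83 ± 0.38 (limma adjusted p = 0.37). Selenop, encoding the secreted selenoprotein P, differed by -1.54 ± 0.33, and its pairs widened from -0.84 in A to -1.64 in B and -2.69 in C. Tent5c, a poly(A) polymerase of secretory B lineage cells, differed by -1.28 ± 0.22 with like pairs of -1.20, -1.49 and -1.38.

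Rere, a transcriptional corepressor, was at -1.27 ± 0.27 and Serinc5, a membrane protein that restricts retroviruses, at -1.21 ± 0.23. Eif2ak3, which encodes the endoplasmic reticulum stress sensor PERK, was at -0.99 ± 0.21. Ankrd55 and the mitochondrial acetyl-CoA synthetase gene Acss1 were both at -0.68 ± 0.15. For Rere and Eif2ak3, pair C held the widest gap, at -2.27 and -1.76, against -0.42 and -0.40 in pair A.

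The 3 pairs differed in how far their zones lay apart. Differences over 1 in either direction numbered 494 in pair A, of which 428 were higher in light zone cells, and 76 in pair B. In pair C there were 1351, of which 986 were lower in light zone cells. The SD of the difference over genes was 0.41 in A, 0.25 in B and 0.54 in C. Across the 19938 genes, which are not independent replicates, differences correlated at 0.18 between A and B, at 0.16 between B and C and at -0.14 between A and C. The medians over all genes were -0.06 in A, -0.01 in B and 0.08 in C.

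Every list was written with earlier results of these data known, so its counts are no independent support. Light zone genes, a list drawn from known markers of that zone, were measured for 31 of 36 entries. Of these, 29 lay above 0, with a median of 0.56, against 9730 of 19938 and a median of -0.0049 over all genes. Fcer2a passed the test without the block, and 3 members, Fcer2a, Cd83 and Egr2, with it. At an unadjusted p under 0.05, 17 members were higher and 0 lower, and 16 members did not overlap between the groups, read against 1.48% and 1.84% of all genes. The median was 0.86 in pair A, 0.48 in B and 0.26 in C, and 0.29 without experiment A. Nfkbia, which encodes the NF-kappaB inhibitor IkappaB-alpha, differed by 0.92 ± 0.19 with light zone values of 8.41, 7.80 and 7.81 against 6.77, 7.36, 7.23 and 6.99. S1pr3, a sphingosine phosphate receptor, differed by 1.00 ± 0.23, but by 1.97 in pair A against 0.25 in pair C. Cd40, the receptor for CD40 ligand of T cells, differed by 0.56 ± 0.21 without overlap. These 3 genes did not pass the adjusted test.

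Dark zone genes, a list written in the same way, were measured for 23 of 25 entries, with Cxcr4 among them. Of the 23, 19 lay below 0 with a median of -0.64. Without the block 0 passed in limma, with it 4 did (Hmces, Cd93, Smarca4 and Polh), and 12 were lower at an unadjusted p under 0.05. Of the 23, 9 were lower without overlap, read against 1.85% of all genes. The medians were -0.47, -0.36 and -0.84 in pairs A, B and C, and -0.39 over the groups without experiment C. Otub2, a deubiquitinase, differed by -1.03 ± 0.27 with 7.41, 7.27 and 7.48 against 8.18, 8.31, 9.14 and 8.02. Nt5e, which encodes CD73, differed by -0.76 ± 0.24 and Neil1, a DNA glycosylase, by -0.91 ± 0.32, both without overlap and neither past the adjusted test. Foxo1, a transcription factor of the dark zone programme, was at -0.17 ± 0.18 with overlapping values.

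**Figure D2:**
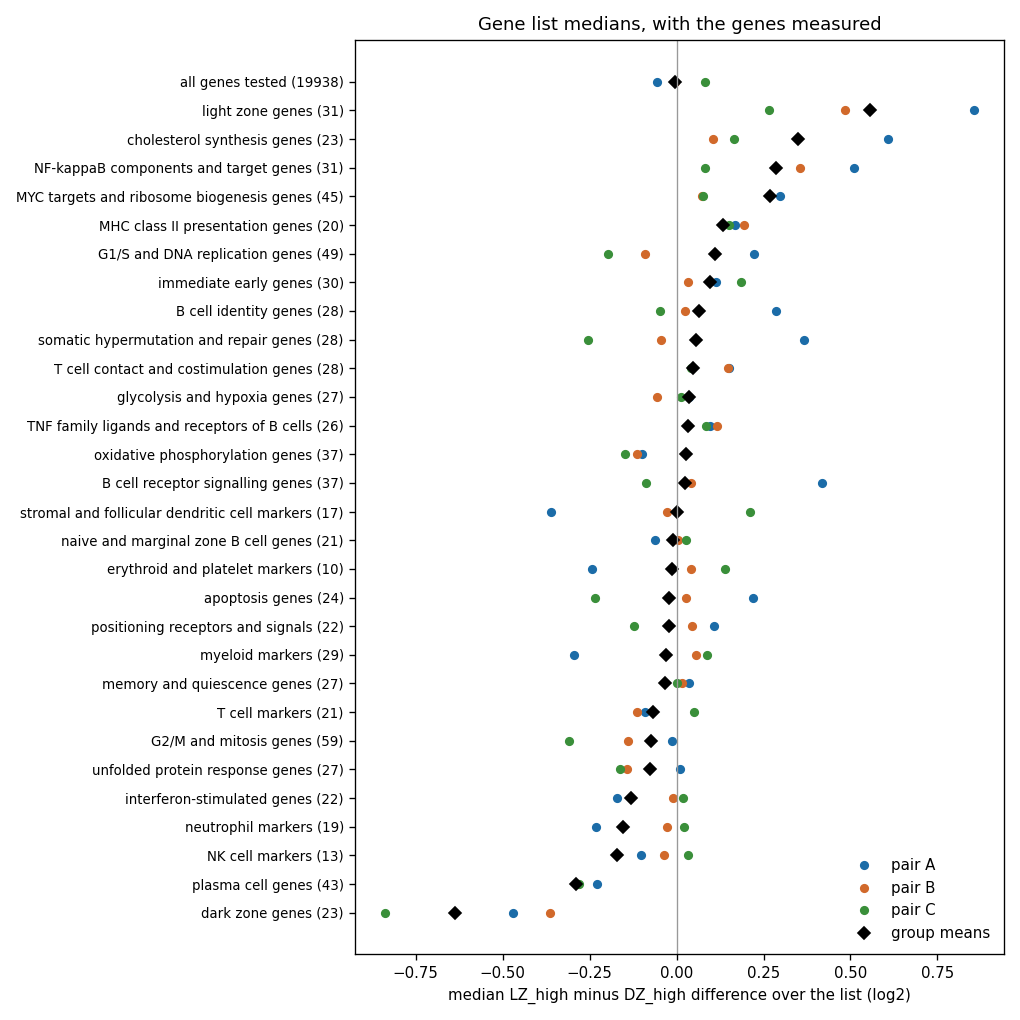
Median light zone minus dark zone difference (log2, horizontal axis) over each gene list, with the number of genes measured in brackets; diamonds are group means and coloured points the pairs A, B and C, and the top row shows all genes tested. The light zone list lies highest at 0.56 and the dark zone list lowest at -0.64. The pairs of the NF-kappaB list spread from 0.51 in A to 0.08 in C, where all genes were also at 0.08.

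Genes that take part in contact with T cells lay on both sides of 0. Of 28 T cell contact and costimulation genes, 14 lay above 0 with a median of 0.05, and 6 were higher and 1 lower without overlap, against 1.84% and 1.85% of all genes. Without LZ_high replicate 1 the median was -0.06. Tnfsf9 was the member that passed. Of 26 TNF family ligands and receptors of B cells, 14 lay above 0 with a median of 0.03, and 5 were higher without overlap (1.84% of all genes). Tnfrsf14, the receptor HVEM, differed by 0.59 ± 0.19, with 7.22, 6.88 and 7.33 against 6.76, 6.59, 6.48 and 6.38. Slamf1, a receptor of lymphocyte contacts, differed by 1.11 ± 0.51, and among the dark zone arrays replicate 4 stood at 8.85 with the others from 8.12 to 8.13. Icosl, the ligand of ICOS on helper T cells, differed by 0.48 ± 0.27 with overlapping values. Of these named genes only Tnfsf9 passed the adjusted test.

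Of 31 NF-kappaB components and targets, 27 were above 0, the median was 0.29, and 7 members were higher without overlap (1.84% of all genes). With the block Cd83 passed, and without it 0 did in limma, with 5 higher and 0 lower at an unadjusted p under 0.05 (1.48% and 1.32% of all genes). The median was 0.51 in pair A, 0.36 in B and 0.08 in C, where the median over all genes was also 0.08. It was 0.15 without experiment A and 0.14 without LZ_high replicate 1. Birc3, an inhibitor of apoptosis induced by NF-kappaB, was at 9.31, 9.19 and 9.26 in light zone cells against 8.59, 8.71, 7.83 and 8.48, a difference of 0.85 ± 0.24. Bcl2l1, encoding the survival protein BCL-XL, differed by 0.73 ± 0.23, with 0.99 and 1.25 in pairs A and C but 0.08 in B. Both were without overlap and did not pass.

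Immediate early genes, which respond to receptor signals within a short time, were above 0 for 25 of 30 members, and their median was 0.10. It was -0.01 without LZ_high replicate 4 and 0.20 without LZ_high replicate 1, and within pairs A, B and C 18, 18 and 22 of the 30 were higher, so the list gives no firm direction. Egr2 passed with the block, and 2 members were higher without overlap (1.84% of all genes). Egr1 was the other, with 7.23, 7.14 and 8.06 in light zone cells against 6.14, 6.39, 7.06 and 6.43, a difference of 0.97 ± 0.38 that did not pass. Ier2 differed by 0.75 ± 0.31, and LZ_high replicate 4 held the highest value at 7.17. Atf3 lay below 0, at -0.35 ± 0.14, with overlapping values.

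Myc itself differed by 0.72 ± 0.31 and its pairs did not share a sign. Light zone arrays read 9.09, 8.88 and 7.996 and dark zone arrays 7.33, 8.14, 8.55 and 7.74, so the pairs were at 1.77, 0.74 and -0.56. Of 45 MYC targets and ribosome biogenesis genes, 42 lay above 0 with a median of 0.27, and 3 were higher without overlap (1.84% of all genes). The pair medians were 0.30, 0.07 and 0.08, beside -0.06, -0.01 and 0.08 over all genes, and lay below the group value in B and C. DZ_high replicate 4, which enters no pair, had the lowest mean over the list, 8.64 against 8.87 to 9.12 on the other dark zone arrays. Without that array the list median was 0.14, and with the block it was 0.17. Nop16, a nucleolar protein, differed by 0.94 ± 0.34, and Fbl, the nucleolar methyltransferase fibrillarin, by 0.51 ± 0.23, and neither passed. Tfrc, the transferrin receptor, differed by 1.05 ± 0.39 without overlap and did not pass.

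Of 23 cholesterol synthesis genes, 21 were above 0 and the median was 0.35, and 8 were higher without overlap (1.84% of all genes). In limma 0 passed the adjusted test and 3 were higher at an unadjusted p under 0.05 (1.48% of all genes). The pair medians were 0.61, 0.10 and 0.16, beside -0.06, -0.01 and 0.08 over all genes. The 3 members under 0.05 were Fdft1, squalene synthase, at 0.57 ± 0.20, Insig1, a sterol sensor, at 0.49 ± 0.20, and Fdps at 0.55 ± 0.25. Sqle, squalene epoxidase, differed by 0.44 ± 0.22 and was not among them. Of 20 MHC class II presentation genes, 16 were above 0, the median was 0.13, and 0 were without overlap (1.84% of all genes were higher so). The median was 0.08 without LZ_high replicate 1 or DZ_high replicate 2 and 0.225 without LZ_high replicate 2. Ifi30, a thiol reductase of antigen processing, differed by 0.83 ± 0.32. In H2-Aa and H2-Oa, DZ_high replicate 3 stood apart from the other dark zone arrays, at 11.88 and 10.64.

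Among 27 glycolysis and hypoxia genes the median was 0.04, or -0.05 without DZ_high replicate 4. Aldoc, the aldolase of this list with the widest gap, was at 7.95, 7.69 and 7.66 in light zone cells against 6.20, 6.97, 7.09 and 6.90, a difference of 0.98 ± 0.26 that did not pass. For 37 oxidative phosphorylation genes the group median was 0.03, whereas the pairs were at -0.10, -0.11 and -0.15 and 20 members were lower in all 3 pairs, against 10.1% of all genes. DZ_high replicate 4 had the lowest mean over this list, 9.88 against 10.35 to 10.65 on the other dark zone arrays. Without it the median was -0.12, and after a repeated quantile normalization -0.0037, so no direction can be given.

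Cell cycle genes had small group medians in high-affinity cells. Of 59 G2/M and mitosis genes, 35 were below 0 and the median was -0.07, and 2 were lower without overlap, a share near the 1.85% of all genes. In all 3 pairs 23 members were lower and 7 higher, against 10.1% and 10.7% of all genes. DZ_high replicate 4, which enters no pair, had the lowest dark zone mean over this list, 8.55 against 8.68 to 9.19. Without that array the median was -0.14. The pair medians were -0.01, -0.14 and -0.31, and the group median was -0.24 with the block, 0.09 without experiment C, 0.10 without LZ_high replicate 4 and -0.22 without LZ_high replicate 2. Cdc25b, a phosphatase that activates mitotic kinases, was the clearest, at 7.80, 7.80 and 8.24 against 8.36, 8.57, 9.06 and 8.34, a difference of -0.64 ± 0.23 that did not pass. Ccnb2, a mitotic cyclin, was at -0.57 ± 0.42 with overlapping values. G1/S and DNA replication genes had a median of 0.11, or -0.0037 without DZ_high replicate 4, and Tyms, thymidylate synthase, differed by 0.73 ± 0.21 without passing.

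Of 28 somatic hypermutation and repair genes 15 lay above 0. Their median was 0.06, or -0.07 without LZ_high replicate 1 and -0.05 with the block. Hmces and Polh passed with the block, as described. Apex1, an abasic site endonuclease, was at 0.62 ± 0.22 and Ung, uracil DNA glycosylase, at 0.27 ± 0.13, so members of the repair list lay on both sides. Neither passed the adjusted test.

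Plasma cell genes lay on the dark zone side. Of 43 measured members 34 were below 0, with a median of -0.29 and pair medians of -0.23, -0.28 and -0.28. In limma 0 passed with or without the block. At an unadjusted p under 0.05, 12 were lower and 1 higher, and 9 were lower and 2 higher without overlap, read against 1.32% and 1.85% of all genes on the lower side. The mean over the list was 8.08 to 8.10 on the light zone arrays and 8.28 to 8.51 on the dark zone arrays, without overlap. Leaving out experiment C gave a median of -0.20.

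Of the members with the largest test statistics, Pdia4, a protein disulfide isomerase, was at 7.95, 7.96 and 7.99 in light zone cells and at 9.74, 9.47, 9.61 and 8.53 in dark zone cells. The light zone arrays were nearly level and DZ_high replicate 4 was nearest to them, with a difference of -1.37 ± 0.33 (limma adjusted p = 0.6, or 0.182 with the block). Slpi, a secreted protease inhibitor, read 8.81, 9.59 and 8.90 against 10.67, 10.89, 10.19 and 10.75, a difference of -1.53 ± 0.37 (limma adjusted p = 0.6). Txndc11, a thioredoxin-domain protein of the endoplasmic reticulum, differed by -1.03 ± 0.23, widest in pair C at -2.02.

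Fkbp11, a peptidyl-prolyl isomerase of secretory cells, was at -0.79 ± 0.20 and Jchain, which joins the units of secreted IgM and IgA, at -0.999 ± 0.43, both without overlap. Prdm1, encoding the plasma cell regulator BLIMP1, differed by -0.29 ± 0.17 with overlapping values. Irf4, a transcription factor of activated B and plasma cells, went the other way, at 0.76 ± 0.25, with 7.05, 6.44 and 7.30 against 5.92, 6.40, 6.33 and 6.02. None of these genes passed the adjusted test. Since each array measured a bulk sample, fewer cells of a type and less RNA per cell cannot be told apart.

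**Figure D3:**
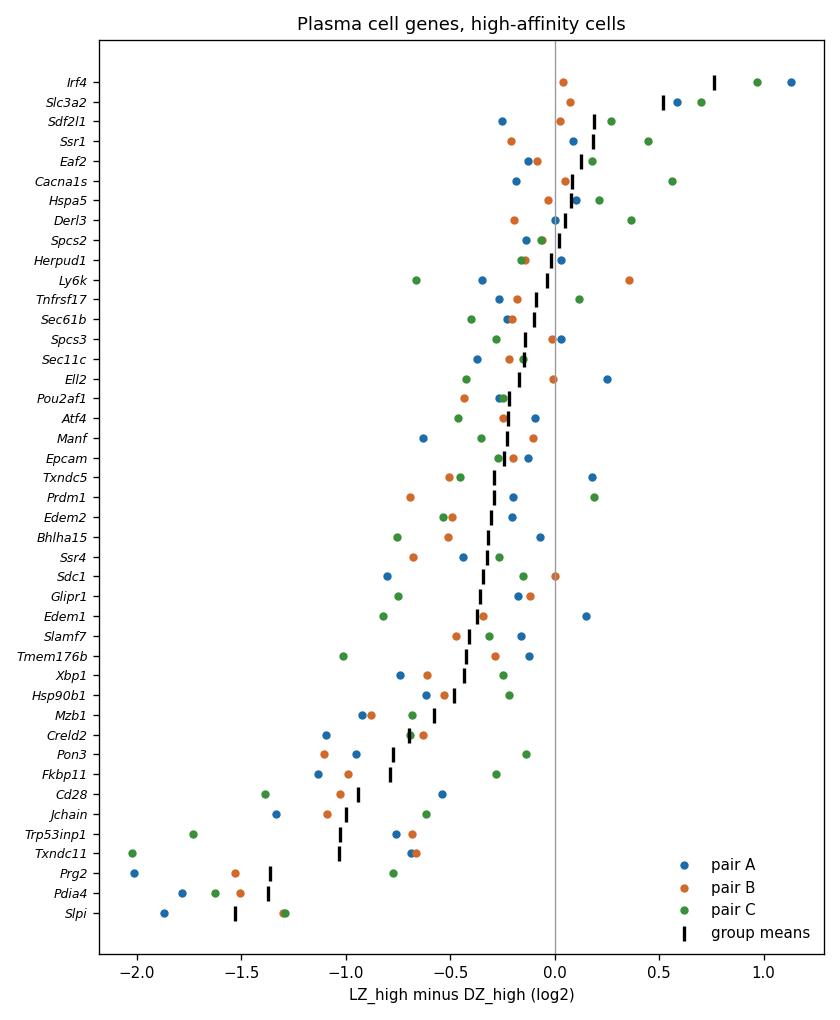
Light zone minus dark zone difference (log2, horizontal axis) of the 43 measured plasma cell genes in high-affinity cells; bars mark group means and coloured points pairs A, B and C. Of the 43 genes 34 lie below 0, from Slpi at -1.53, and Irf4 is at 0.76.

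Markers of other cell types were compared in the same arrays. The mean of 21 T cell markers was 5.151 to 5.353 on light zone and 5.356 to 5.403 on dark zone arrays. The groups did not overlap but nearly met. The median difference was -0.07, or 0.02 without LZ_high replicate 1 and 0.06 with the block. Defining T cell genes were low in both, with Cd3e at 5.53 and 5.67 and Cd4 at 5.19 and 5.21 in the light zone and dark zone means. Cd2, which B cells also express, differed by -0.84 ± 0.20 and Cd28, which is on the plasma cell list too, by -0.94 ± 0.25. Neutrophil markers had a median difference of -0.15 over 19 genes, or -0.02 without LZ_high replicate 1 and -0.32 without LZ_high replicate 2. With the block it was 0.11. Their means overlapped, at 4.78 to 5.87 and 4.95 to 6.02. S100a9, an abundant neutrophil protein, had the widest gap of this list and averaged 7.62 in light zone and 9.05 in dark zone arrays. Its arrays overlapped between the groups. Of the 19 markers, 0 were without overlap (1.85% of all genes were lower so), and 0 had an unadjusted limma p under 0.05. The means of 29 myeloid markers (4.87 to 5.21 and 5.04 to 5.31), 13 NK cell markers, 10 erythroid and platelet markers and 17 stromal markers also overlapped. The part of such cells in the differences between zones was not tested. Detection calls were not part of the table, and no marker was called absent.

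The lists on unfolded protein response (median -0.08 over 27), memory and quiescence (-0.03 over 27), B cell receptor signalling (0.03 over 37) and B cell identity (0.06 over 28) had small group medians. In pair A, B cell receptor signalling was at 0.42 with 33 of 37 members higher and B cell identity at 0.29 with 22 of 28, beside -0.06 for all genes, and in pair C they were at -0.09 and -0.05, beside 0.08. Apoptosis (-0.02 over 24), positioning receptors (-0.02 over 22) and naive and marginal zone genes (-0.01 over 21) did too, though apoptosis was at 0.22 in pair A and -0.23 in pair C, and interferon-stimulated genes were at -0.13 over 22. Among their members, Cr2, the complement receptor CD21, differed by 0.90 ± 0.28 and Cxcr5, the follicle-homing chemokine receptor, by 0.86 ± 0.37. Bcl2l11, which encodes the death-promoting protein BIM, differed by -0.82 ± 0.22 without overlap, at 6.12, 6.28 and 5.68 against 6.47, 6.80, 7.22 and 6.90. Cmah, an enzyme of sialic acid synthesis, differed by -1.19 ± 0.35 without overlap. Bach2, a repressor of plasma cell fate, was at -0.70 ± 0.29 with pairs from 0.41 to -1.60, and Bcl6, the master regulator of germinal centre B cells, at 0.15 ± 0.20. None of these passed the adjusted test.

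The zone difference of low-affinity cells was set beside that of high-affinity cells, and the difference between them was tested. The test of the difference between affinities called 0 of 19938 genes in limma (0%), with and without the block, and 266 genes were at an unadjusted p under 0.05 (1.33%), or 380 with the block. All 11 genes called with the block had the same sign in low-affinity cells, and 9 had a smaller difference there. The 11 were chosen by their high-affinity difference, and that choice alone can make the low-affinity one smaller. Fcer2a was at 1.52 ± 0.18 in low-affinity cells, Cd83 at 1.52 ± 0.24 and Egr2 at 1.25 ± 0.23. Tnfsf9 was at 1.05 ± 0.25 and Cd93 at -0.28 ± 0.22 there, and their differences between affinities had an unadjusted limma p of 0.0188 and 0.0167. For Cd86, at 0.75 ± 0.15 in low-affinity cells, it was 0.0227, which makes 3 of the 11. These p-values reuse the high-affinity values that chose the genes. No difference between affinities passed the adjustment.

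Of the other genes, also chosen by their high-affinity test statistics, Entpd1 was at -0.18 ± 0.35 in low-affinity cells, against -1.83 ± 0.38 in high-affinity cells. Casp4 was at 0.56 ± 0.29 and Cmah at 0.55 ± 0.33 in low-affinity cells, the latter of opposite sign. Hhex, at 2.05 ± 0.34, Selenop, at -1.59 ± 0.31, and Serinc5, at -1.20 ± 0.22, stood beside 1.80, -1.54 and -1.21 in high-affinity cells.

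By list, the light zone median was 0.62 and the dark zone median -0.52 in low-affinity cells, near the high-affinity values of 0.56 and -0.64. The plasma cell median was -0.04 there against -0.29. Of its 43 members, 6 were at an unadjusted limma p under 0.05 for the difference between affinities, beside 1.33% of all genes. In pair A the plasma cell median was -0.23 at both affinities. In pairs B and C it was 0.07 in low-affinity and -0.28 in high-affinity cells. Pdia4 was at -0.17 ± 0.30 in low-affinity cells, Slpi at -0.37 ± 0.34 and Fkbp11 at -0.02 ± 0.18. In low-affinity pair A, Pdia4 was at -1.20 and Slpi at -1.53. In low-affinity pairs B, C and D, Pdia4 was at 0.23, 0.15 and 0.15 and Slpi at -0.08, 0.36 and -0.22. MYC targets had a median of 0.03 in low-affinity cells against 0.27. Their medians in pairs A, B and C were -0.03, 0.08 and 0.02 there, against 0.30, 0.07 and 0.08 in high-affinity cells. The G2/M median was -0.58, with 4 of 59 members above 0, against -0.07 (-0.24 with the block) and 24 above 0 in high-affinity cells. In pairs A, B and C the G2/M medians were -0.77, -0.23 and -0.38 in low-affinity cells. In high-affinity cells they were -0.01, -0.14 and -0.31, so the affinities lay apart mainly in A. Low-affinity pair D, at -0.92, has no high-affinity counterpart. Neutrophil markers had a median of 0.49 in low-affinity cells, with 18 of 19 above 0, against -0.15 (0.11 with the block) in high-affinity cells. Their low-affinity pairs A, B, C and D were at -0.06, 0.15, 0.50 and 1.30. Of the 19, 0 had an unadjusted limma p under 0.05 for the difference between affinities. Memory and quiescence genes were at 0.39 against -0.03 (0.09 with the block). These are values of the lists side by side, and no difference between affinities passed over all genes.

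**Figure D4:**
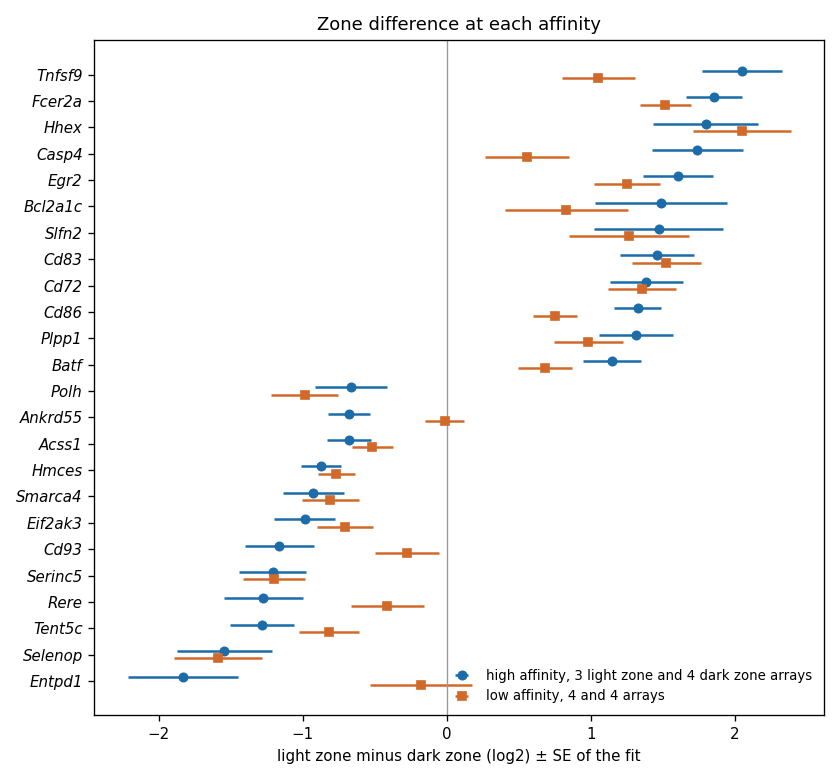
Light zone minus dark zone difference (log2, horizontal axis, ± standard error of the fit) in high-affinity (circles) and low-affinity cells (squares) for the genes called and the genes with the largest test statistics. Fcer2a, Cd83, Hhex and Serinc5 lie close together at both affinities, while Entpd1 is at -1.83 in high-affinity and -0.18 in low-affinity cells.

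Testing all 28853 probe sets, named or not, called 7, of which 3 were the genes above and 4 were lower in light zone cells. The annotation gives each of the 4 to 5 or 6 genes, so they are not named here, and they may share sequence and so are not separate evidence. Probe set 10519671 was at 5.39, 5.37 and 4.79 in light zone cells and at 7.69, 8.07, 8.11 and 6.99 in dark zone cells. The groups were far apart, and the probe set fell by 2.53 ± 0.25 (limma adjusted p = 0.00284). The differences of the other 3 were -3.02, -2.22 and -3.06, and these 4 were the lowest differences of the table. In low-affinity cells the same probe set was at -0.87, and the difference between affinities had an unadjusted limma p of 2.63e-04, or 1 after adjustment.

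**Figure D5:**
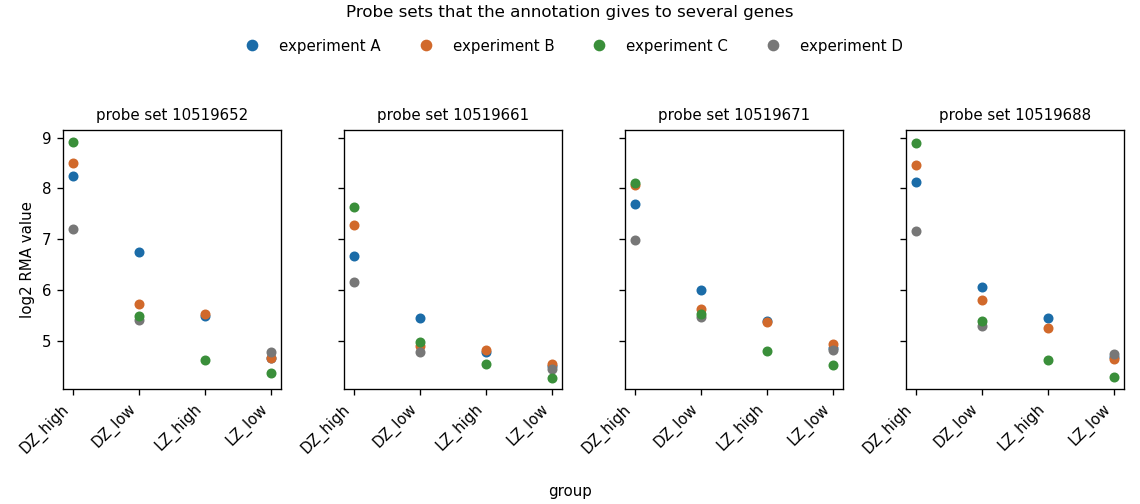
Log2 RMA values (vertical axis) of the 4 called probe sets with several genes on the arrays of each group (horizontal axis); colours give the experiment code. All DZ_high arrays lie above all LZ_high arrays in each panel, and DZ_high replicate 4 (experiment D) is the lowest of its group.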

How the data were processed

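Per the labels' protocols, RNA from sorted cells was amplified, biotin-labelled and measured on 1 whole-transcript array per sample. The values deposited by the authors were log2 expression for 28853 probe sets from RMA, per the submitters' processing notes, which also give genome build mm8. Which software ran RMA is not given in the sources used here. Dim probe sets have compressed differences under RMA, and amplification adds spread between arrays.

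Probe sets with 1 gene in the platform annotation (21789) were used, 1621 with several and 5443 with none were left out of the main test, and each of 999 genes with several probe sets was read from its brightest one, for 19938 genes in all. By Entrez ID, 21698 probe sets matched the RefSeq gene table. A model of 4 group means over the 15 arrays was fitted with limma 3.58.1 in R 4.3.3 (11 residual degrees of freedom), and the Benjamini-Hochberg method adjusted p-values over all genes, with a threshold of 0.05. No 2 arrays were counted as repeats, the highest correlation between any being 0.993. The LZ_high against DZ_high fit without the block was tested on simulated data with independent noise. The block, the test between affinities and the list counts were not tested in this way. Figures were drawn with matplotlib 3.10.9, and exact tests were run in scipy 1.17.1.

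The experiment code was checked as a pairing. Deviations of arrays with the same code from their group means correlated at 0.29 on average (21 pairs, 16 above 0.1), and with different codes at -0.08 (63 pairs, 21 above 0.1). Deviations sum to 0 within a group, so a positive mean for the same code lowers the mean for different codes. Arrays with the same title number correlated at 0.23 on average (21 pairs, 15 above 0.1). Within the high-affinity arrays, pairs A, B and C correlated at -0.07, 0.35 and 0.42. DZ_high replicate 4 (D) and LZ_high replicate 1 (A), of different codes, correlated at 0.40. The block fit (8 residual degrees of freedom) is given beside gene calls that it changes, but only beside some list medians. Other list medians changed sign with the block, among them G1/S at -0.01, oxidative phosphorylation at -0.03, memory and quiescence at 0.09 and NK cell markers at 0.04.

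Named genes were those called with or without the block, the 10 highest and 10 lowest test statistics among genes whose groups did not overlap and whose pairs had 1 sign, a short set of zone genes, and the 4 members of each list with the largest test statistic. Antigen receptor segments, small RNAs, predicted genes and olfactory or vomeronasal receptors were left out of the called genes and the test statistics. Marker means of Cd3e, Cd4 and S100a9 were added after their values were seen. The members and the 30 lists were chosen with earlier results of these data known. The lists hold 897 entries, of which 819 were measured and 78 are not analysed here. Alternatives changed the normalization, filter, probe set rule, variance model, block, arrays and threshold.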

Additional observations from a re-analysis of the deposited data

Results flagged for a closer look

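Among the dark zone arrays of high-affinity cells, 6 of the named genes had 1 array far from the other 3. Chance alone sets apart about 1 in 20 groups in this way, and 92 named genes were looked at. DZ_high replicate 4 had Slamf1 at 8.85, with the others between 8.12 and 8.13. DZ_high replicate 3 was high in Ier2 at 5.99 (others 5.29 to 5.37), H2-Aa at 11.88 (11.35 to 11.43), H2-Oa at 10.64 (9.10 to 9.33) and Icosl at 7.49 (7.23 to 7.26). DZ_high replicate 1 was low in Tfrc at 8.20, against 8.43 to 8.46. A cause was not tested.

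Probe sets that the annotation gives to several genes lay outside the main test. Of these, probe set 10519652 differed by -3.02 between light zone and dark zone cells, 10519661 by -2.22, 10519671 by -2.53 and 10519688 by -3.06 (limma adjusted p = 0.0111, 0.00913, 0.00284 and 0.00394 over all probe sets). They were not counted as separate evidence.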

How the results depend on the processing

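The count of 3 genes stayed at 3 with arrays centred on their medians, without the dimmest genes, with the mean of a gene's probe sets, with an intensity trend and with robust variances. It was 5 after a repeated quantile normalization, 5 with array weights, 5 at an adjusted p under 0.1 and 7 over all probe sets. With only the 7 high-affinity arrays it was 1. Leaving out each array gave 1 to 4, leaving out experiment D 6, and leaving out experiment A, B or C 0. Omitting A or C was chosen after seeing the data.

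With the experiment code as a block the count was 11 (B merged) or 1 (B as written), 6 with it as a random block, and 0 on the 7 arrays alone with the block, where 919 genes had an unadjusted limma p under 0.05. The block by title number, which follows the code for A and B alone, gave 7. In the merged block fit, leaving out each array gave 1 to 24, and leaving out experiments A, B or C gave 0, 0 and 1, all chosen after seeing the data.

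Fcer2a was called in 29 of 33 alternatives, and Cd86 and Tnfsf9 in 21 each. Of the 92 named genes, Bcl6 turned its sign, from 0.15 to -0.033 without experiment A, outside the fits that left out 1 array, and 0 turned within those. The dependence on affinity gave 0 calls throughout in limma. Among 29 list medians, the sign of those near 0 followed the arrays and the block used. Dim probe sets limit what can be seen of low genes such as Cd93.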
